A study of Drosophila melanogaster with 20 samples.

Results

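The gustatory and ionotropic receptor genes of *Drosophila melanogaster* encode the receptors with which a fly tastes, smells acids and amines, and senses humidity and temperature. Members were the probe sets whose annotation names a single gene with a symbol that starts with Gr or Ir and a digit, and for a gene with several probe sets the brightest was taken. The rule gave 71 genes, 28 gustatory and 43 ionotropic, of 10844 genes that have a probe set of their own. The RefSeq annotation lists 126 such genes, and the other 55 are not described here, 5 of them because they lie on probe sets that name several genes (Gr64b, Gr64c, Gr64d, Gr64e and Ir75d).

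Whole adult males were pooled, 30 flies to a sample, and their RNA was read on 20 DrosGenome1 arrays from Affymetrix, 4 in each of 5 groups. All flies were progeny of the transactivator line rtTA(3)E2, which with doxycycline (DOX) switches on a transgene in adult tissues. In the MnSOD flies this was a manganese superoxide dismutase transgene, carried by the line MnSOD(2)22, so that the MnSOD results rest on 1 insertion line. The control flies came from the Oregon R strain and carried rtTA(3)E2 but no such transgene. The MnSOD line was sampled without DOX at day 73 (MnSOD -DOX) and with DOX at both day 73 and day 83 (MnSOD +DOX), and the control flies at day 73, also without DOX (Control -DOX) and with it (Control +DOX). By the labels, day 73 was the age at 50% survival without DOX, and day 83 the age at which 50% of the MnSOD +DOX flies survived.

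Gustatory receptors are membrane proteins of taste neurons in the mouthparts, legs and wings, and some also act in the antenna, gut and brain. Ionotropic receptors are relatives of ionotropic glutamate receptors, in which a tuning subunit works together with a co-receptor such as Ir8a, Ir25a or Ir76b. Most of these genes are used by a few neurons only, and these are a very small share of the cells of a fly. In RNA of whole flies, fewer cells of a type and less RNA per cell cannot be told apart.

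Nearly all members were dim. Values are log2 signals after RMA, a normalization that sets all arrays to a common distribution, and the median of all 14010 probe sets was 5.63. The means of the members over the 20 arrays ran from 3.13 for Gr23a to 6.57 for Gr8a, with a median of 4.14 (3.87 for gustatory and 4.22 for ionotropic receptors). Probe sets differ in how strongly they bind, so the order of these levels describes signals and not amounts of RNA. Gr8a, a receptor for the plant deterrent L-canavanine, and Gr2a, at 5.90, were above the array median on all 20 arrays. A further 4 members were above it on some arrays, and 65 on none. The median member stood at the 13.7th percentile of all probe sets, and 48 of 71 members (67.6%) lay among the 3502 dimmest.

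The array holds 2 kinds of probe sets against which this can be read. The first are 8 probe sets for mouse and yeast transcripts, which fly RNA should not match, and their means ran from 3.40 to 4.40 with a median of 3.58. Of the members, 26 were above the highest of these (36.6%, against 81.2% of all probe sets), 38 lay within their range and 7 below it. The second are ovary chorion, vitelline membrane and larval glue genes, not expected in adult males, of which 21 of 24 were matched. Their means ran from 3.73 to 6.92 with a median of 5.87, and no member exceeded the highest of them. Only Gr8a and Gr2a exceeded their median.

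**Figure D1:**
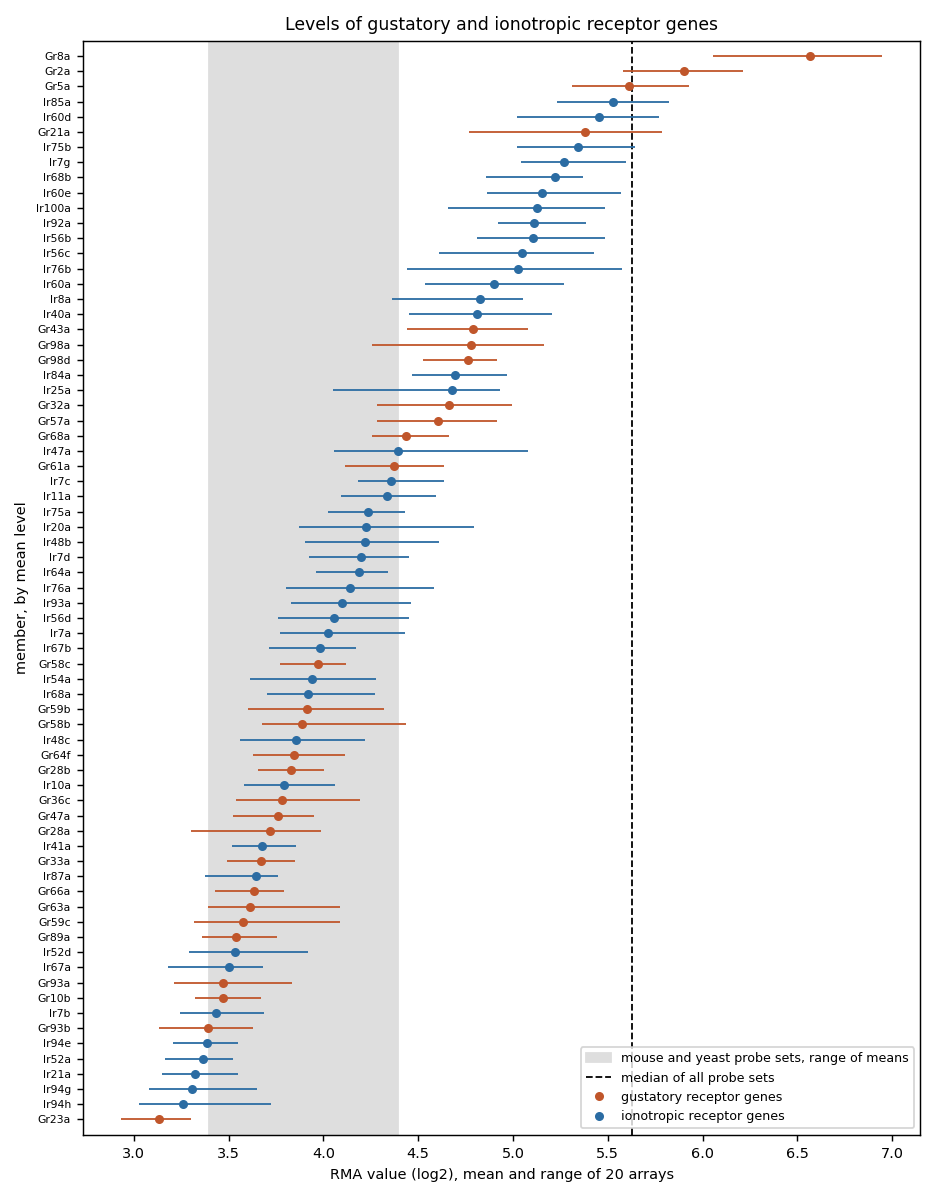
RMA value (log2) of the 71 members, ordered by mean. Points are means over 20 arrays and lines run from the lowest to the highest array, in orange for gustatory and in blue for ionotropic receptor genes. The grey band is the range of the means of the 8 mouse and yeast probe sets, 3.40 to 4.40. The dashed line is the median of all probe sets, 5.63, which 2 members exceed by their means.

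The highest levels were spread over roles. After Gr8a and Gr2a followed Gr5a, the trehalose receptor, at 5.61, Ir85a at 5.53, Ir60d at 5.45 and Gr21a, a subunit of the carbon dioxide receptor, at 5.38. Next were Ir75b, an antennal receptor for short-chain acids, at 5.34, Ir7g at 5.27, Ir68b at 5.22 and Ir60e at 5.15. The lowest were Gr23a, Ir94h at 3.26, Ir94g at 3.30, Ir21a, which serves cool sensing, at 3.32, and Ir52a at 3.37. Differences of a few hundredths between neighbours in this order are smaller than the spread between replicates, whose median SD within a group was 0.112 for the members and 0.127 for all probe sets.

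Among the ionotropic co-receptors, Ir76b had a mean of 5.03, Ir8a of 4.83, Ir25a of 4.68 and Ir93a of 4.10. Of the sugar receptors, Gr5a was followed by Gr43a, a fructose sensor of brain and taste organs, at 4.79, Gr61a at 4.37 and the co-receptor Gr64f at 3.84. The receptors found in most bitter neurons were read with Gr32a at 4.67, Gr33a at 3.67, Gr66a at 3.63 and Gr89a at 3.54. The 6 other bitter and deterrent receptors had a median of 3.74, with Gr8a as their highest, and Gr93a, needed for caffeine taste, as their lowest at 3.47. The carbon dioxide receptor is formed by Gr21a and Gr63a, which were read at 5.38 and 3.61. The 10 antennal ionotropic receptors ran from 3.32 to 5.34 and the 22 taste ionotropic receptors from 3.26 to 5.45, both with a median of 4.21. In each of these roles at least 1 member was above the highest mouse or yeast probe set.

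Neighbouring genes and second probe sets limit what a member's signal can be assigned to. In the RefSeq annotation the span of 15 members (21.1%) overlaps another protein-coding gene, against 41.1% of all genes with a probe set of their own. Of the 26 members above the mouse and yeast range 9 do so, and of the 45 others 6. Gr8a overlaps CG12121, which was read at 6.32, Gr2a overlaps futsch (5.64), Ir85a overlaps Pif1A (6.61) and Ir60e overlaps Brca2 (5.11). Whether a probe set also takes up RNA of such a neighbour was not tested. For 4 members there were 2 probe sets. Those of Ir8a changed by -0.35 and -0.24 with DOX in control flies and were called in no contrast. In the same comparison the dimmer probe set of Ir93a changed by -0.31 (SE 0.0770, adjusted p = 0.00306), and the brighter one by -0.08 (SE 0.0970, adjusted p = 0.52).

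Directions below follow the sample labels, and for the control flies these run opposite to the direction in which the study lists the change with DOX. In control flies the members were lower with DOX. All 71 changes were below zero, with a median of -0.22 against -0.05 for all probe sets, and ran from -0.64 to -0.04. By limma, with a call at an adjusted p under 0.01 and a change of at least 1.2-fold, 22 of 71 members (31.0%) were lower and none was higher, against 14.1% and 12.1% of all probe sets. At an unadjusted p under 0.05 there were 47 members. For counts at this level the share of all probe sets is not given, here and below. Among the 3502 dimmest probe sets 15.9% were called lower and 3.83% higher, and the 48 members among them had 14 calls (29.2%). Of the 23 members outside them 8 were called lower (34.8%), against 13.5% of the other probe sets.

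The probe sets for RNA that flies do not make moved with the members. All 9 bacterial spike-in probe sets were called lower (median -1.07), and all 8 mouse and yeast probe sets were below zero (median -0.23, 1 called). Of the 21 ovary and larval glue genes all were below zero and 9 were called lower (median -0.28). The shift was larger on Control +DOX replicates 1, 2 and 3 than on replicate 4. The mean of the members was 4.05, 4.11 and 4.09 on these arrays and 4.27 on replicate 4, against 4.30 to 4.39 on the Control -DOX arrays. The mouse and yeast mean was 3.50, 3.55, 3.53 and 3.69 on the 4 Control +DOX arrays in the same order, and 3.71 to 3.86 on the Control -DOX arrays. The spike-in mean was 8.41, 7.98, 8.09 and 9.69, against 9.61 to 10.2 without DOX. By these means replicate 4 also lay below all Control -DOX arrays, except for the spike-ins. On the 12 arrays of the MnSOD line the mean of the members stayed between 4.22 and 4.37.

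**Figure D2:**
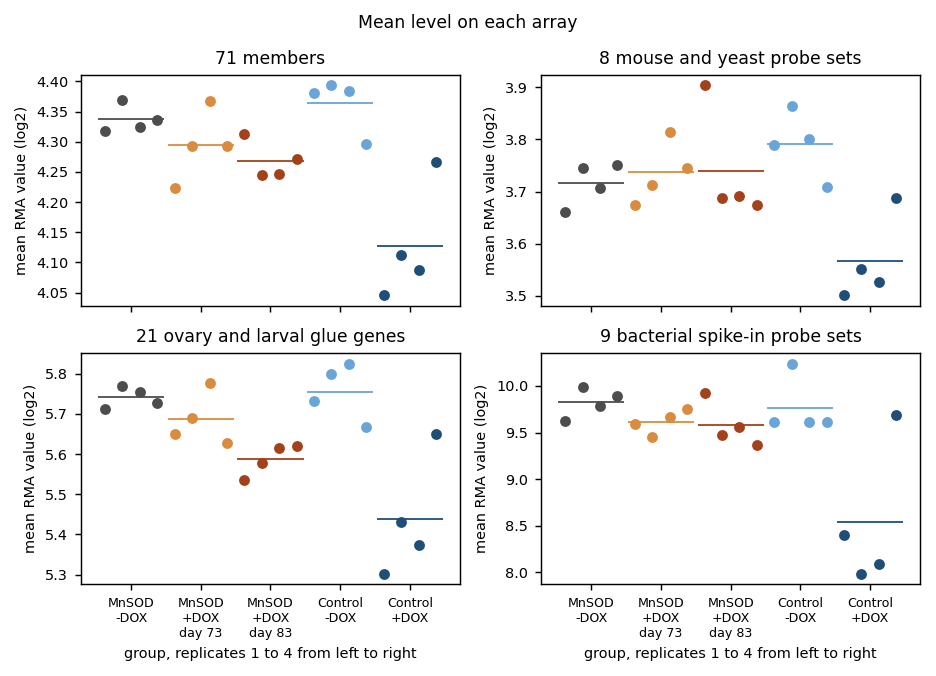
Mean RMA value (log2) on each array of the 71 members, the 8 mouse and yeast probe sets, the 21 ovary and larval glue genes and the 9 bacterial spike-in probe sets. Each point is an array, replicates 1 to 4 from left to right within a group, and lines are group means. In all 4 panels Control +DOX replicates 1 to 3 lie below replicate 4 of that group and below the 16 arrays of the other groups.

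The largest change was that of Ir76b, the co-receptor used in amino acid, salt and sour taste. It was read at 5.18, 5.19, 5.57 and 5.33 without DOX and at 4.44, 4.66, 4.62 and 4.99 with DOX. The groups did not overlap, and the change was -0.64 (SE 0.0977, adjusted p = 6.38e-05). Gr21a was read at 5.78, 5.63, 5.59 and 5.47 without DOX, and at 5.04, 4.95, 4.77 and 5.47 with DOX. Its change was -0.56 (SE 0.108, adjusted p = 0.000473), and replicate 4 with DOX lay at the level of the lowest array without DOX. Ir56c, a taste receptor, fell by 0.48 (SE 0.0879, adjusted p = 0.000287), from 5.02 to 5.43 without DOX to 4.61 to 4.93 with DOX. Ir40a, which serves dry air sensing in the antenna, fell by 0.45 (SE 0.0930, adjusted p = 0.000732), and its second probe set changed by -0.10 (SE 0.103, adjusted p = 0.45).

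Ir100a (-0.47), Ir47a (-0.47), the bitter receptor Gr59c (-0.42), Ir60a (-0.41), Ir48c (-0.38) and Gr59b (-0.37) complete the 10 largest falls. SLO2, the potassium channel gene that overlaps Ir47a, changed by -0.45 in the same comparison (SE 0.0858, adjusted p = 0.000447). The genes that overlap other called members were not called. They were futsch (-0.28, overlaps Gr2a), nord (-0.22, Ir60a), CG42233 (-0.12, Ir100a) and ths (0.004, Ir48c). The remaining 12 calls ran from Gr57a (-0.37) to Ir64a, the acid sensor of the antennal sacculus (-0.27). By role, against 14.1% of all probe sets, calls were made for 11 of 22 taste, 2 of 10 antennal and 2 of 7 other ionotropic receptors, and for 1 of 4 co-receptors. Among the gustatory receptors there were 1 of 2 carbon dioxide receptors, 2 of 6 other bitter and deterrent receptors, 3 of 12 without such a role, 0 of 4 sugar receptors and 0 of 4 receptors of most bitter neurons.

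The changes in control flies were smaller without the 3 low arrays. With replicates 1 to 3 left out, replicate 4 is the only Control +DOX array, and calls from that fit are not given. The median change was then -0.10, against -0.22 with all arrays. With the spike-in mean or the mouse and yeast mean of each array as a covariate 0 members were called, and the median was -0.12 and -0.09. Both means were lowest on the 3 low arrays, so these fits cannot separate the covariate from the change with DOX. Replicate 4 alone lay below all Control -DOX arrays for 14 of the 22 called members. It also did so for members that were not called, such as Gr5a, Ir20a and Gr32a. The share of all probe sets is not given. For the called members the difference of replicate 4 from the Control -DOX mean had a median of -0.19, against -0.37 for the change over all replicates. The 22 members were called with replicate 4 and the same Control -DOX arrays in the fit, so neither value is separate support. For Ir76b the change was -0.33 without replicates 1 to 3 and -0.55 with the mouse and yeast covariate (adjusted p = 0.045 by limma). The part of the shift of foreign and spike-in probe sets in the change of the members was otherwise not tested.

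**Figure D3:**
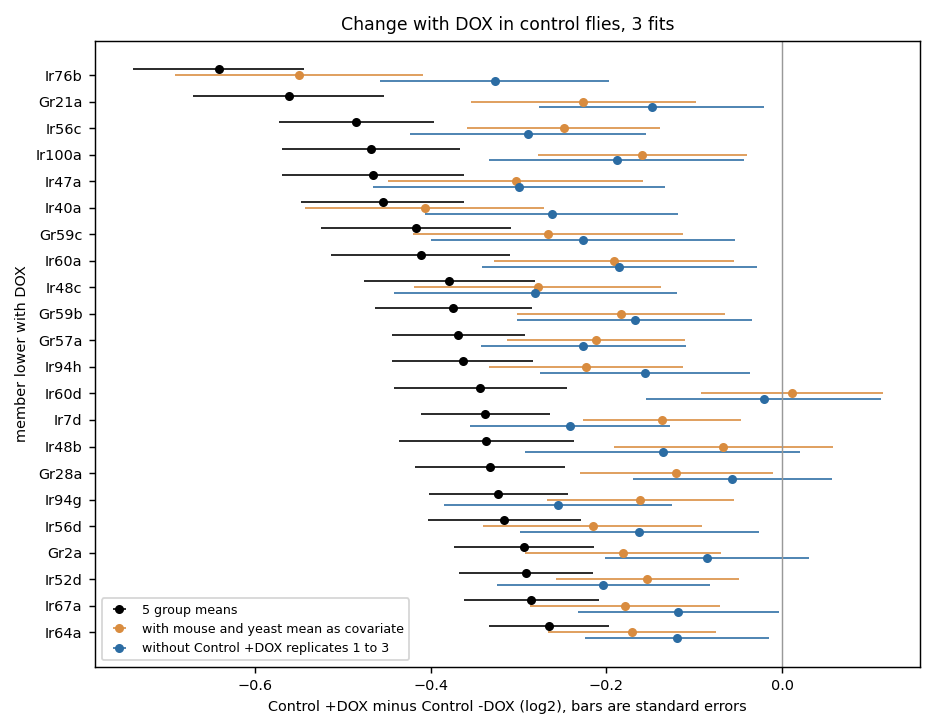
Control +DOX minus Control -DOX (log2) for the 22 members called lower, from the model of 5 group means (black), the same model with the mouse and yeast mean of each array as a covariate (orange) and the model without Control +DOX replicates 1 to 3 (blue). Points are estimates and bars standard errors. Of the 22 calls in black, 0 remain in orange. Calls are not given for blue, where replicate 4 is the only Control +DOX array.

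Odorant receptor genes, the other large family of chemosensory receptors, had much the same shares. Of 53 such genes 16 (30.2%) were lower with DOX in control flies and none higher, with a median change of -0.21. Their means over all arrays ran from 3.18 to 6.57 with a median of 4.16, and 2 were above the median of all probe sets. No test of a difference between the families was made.

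In the MnSOD line at day 73 no member was called with DOX, against 0.2% of all probe sets higher and 0.464% lower. Changes ran from -0.19 to 0.14 with a median of -0.05, and 2 members had an unadjusted p under 0.05. Gr21a, for example, was read at 5.39, 5.58, 5.35 and 5.38 without DOX and at 5.23, 5.35, 5.50 and 5.43 with DOX at day 73, and these groups overlap.

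At day 83, 5 members were lower than in MnSOD -DOX flies at day 73. This is 7.04% of the members, against 6.26% of all probe sets lower and 3.01% higher, and no member was higher. The median change was -0.07, against -0.04 for all probe sets, and 18 members had an unadjusted p under 0.05. In this comparison DOX, MnSOD and 10 more days of age go together and cannot be told apart.

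Ir56b, a receptor of taste neurons that respond to low salt, changed most. It was read at 5.29, 5.48, 5.30 and 5.39 in MnSOD -DOX flies and at 4.95, 4.94, 4.88 and 4.98 at day 83, with 5.08, 5.18, 5.28 and 5.23 at day 73 with DOX. The day 83 arrays lay below all others of the line, and the change against MnSOD -DOX was -0.43 (SE 0.0704, adjusted p = 0.000256). Ir75b was read at 5.40, 5.50, 5.52 and 5.48 in MnSOD -DOX flies, at 5.38, 5.46, 5.64 and 5.43 at day 73 with DOX and at 5.07, 5.09, 5.02 and 5.16 at day 83. It fell by 0.39 (SE 0.0781, adjusted p = 0.00143). Ir75b kept its call under all 29 alternatives. Ir56b kept it under 28, and the fit without the lowest 40% of probe sets does not hold Ir56b.

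Gr8a was read at 6.68, 6.66, 6.64 and 6.85 in MnSOD -DOX flies and at 6.06, 6.41, 6.48 and 6.39 at day 83, a fall by 0.37 (SE 0.0880, adjusted p = 0.00505). CG12121, which overlaps it, changed by -0.16 in this comparison (SE 0.10, adjusted p = 0.26). Gr43a was read at 5.07, 5.08, 4.91 and 4.96 and then at 4.62, 4.82, 4.44 and 4.73, a fall by 0.35 (SE 0.0893, adjusted p = 0.00817). Ir60e was read at 5.31, 5.57, 5.21 and 5.24 and then at 5.10, 4.95, 4.90 and 5.04, a fall by 0.34 (SE 0.0850, adjusted p = 0.00798). Brca2, the DNA repair gene that overlaps Ir60e, changed by -0.23 (SE 0.0767, adjusted p = 0.038). The groups did not overlap for any of the 5, and in this comparison they did not overlap for 14 of the 71 members. The share of all probe sets with groups apart is not given.

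The calls of Gr43a and Ir60e rest on settings, since each is lost under 13 or 14 of 28 alternatives, among them arrays centred on their median and several left-out arrays. Gr8a lost its call under 5 of 29, one of them the fit without MnSOD +DOX day 83 replicate 1, its lowest array. Other tissues moved between the same groups. Of 15 testis genes 9 were called higher at day 83 (median 0.40), of 11 accessory gland genes 7 were lower (median -0.60), and of 12 neuronal genes 1 was higher and 1 lower (median -0.10). Their part in the fall of the 5 members was not tested.

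**Figure D4:**
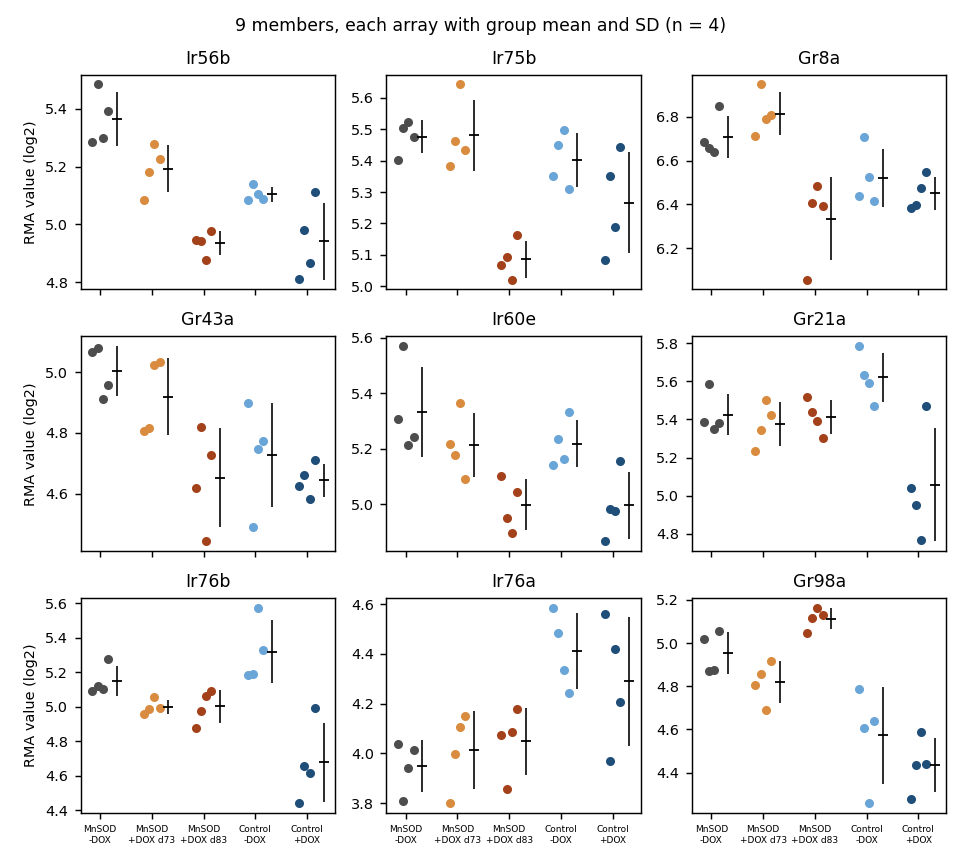
RMA value (log2) of 9 members on each array, by group. Points are arrays, replicates 1 to 4 from left to right, and beside them are the group mean and SD (n = 4); the vertical axes differ and do not start at 0. In the panels of Ir56b, Ir75b, Gr8a, Gr43a and Ir60e the MnSOD +DOX day 83 arrays lie below all MnSOD -DOX arrays, and in those of Gr21a and Ir76b Control +DOX replicates 1 to 3 are the lowest of all arrays.

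Between day 73 and day 83 with MnSOD on, 2 members were lower and none higher, against 2.74% and 0.949% of all probe sets. Gr8a was read at 6.71, 6.95, 6.79 and 6.81 at day 73 and fell by 0.48 (SE 0.0880, adjusted p = 0.00195). Ir75b fell by 0.39 (SE 0.0781, adjusted p = 0.00318). These 2 comparisons share the day 83 arrays with the one before, and Gr8a and Ir75b are called in both. Ir56b changed by -0.26 and Gr43a by -0.27, and neither was called. With the fit limited to both day groups there was no call.

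The study's own comparison subtracts the change with DOX in control flies from that in the MnSOD line. At day 73 no member was called after this correction, against 2.22% of all probe sets higher and 3.78% lower, and the median change was 0.17. At day 83, 9 members (12.7%) were higher and none lower, against 8.13% and 9.49% of all probe sets, and the median was 0.18 against 0.01 for all probe sets. With the control groups exchanged, the direction in which the study lists the control change, 13 members were lower and 0 higher. The share of all probe sets in that setting is not given. All 9 higher members turned below zero in it, Ir76b to -0.79 and Gr21a to -0.57. The corrected changes contain the control change with its sign turned, and so the 3 low arrays as well.

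For the 9 members the parts were as follows. Ir100a changed by 0.16 in the MnSOD line and by -0.47 in control flies, which gives 0.63 (SE 0.143, adjusted p = 0.00221). Gr59b changed by 0.24 and -0.37, which gives 0.62 (SE 0.126, adjusted p = 0.000918). Ir56c changed by 0.11 and -0.48, which gives 0.60 (SE 0.124, adjusted p = 0.00107). In each of these the larger part came from the control flies. Gr21a (0.55), Ir48b (0.53), the co-receptor Ir76b (0.49), Ir7d (0.46), Ir94h (0.46) and Ir56d, which serves fatty acid taste (0.44), follow, and none of the 9 was called in the MnSOD line itself. With either covariate the count of the 9 was 0. The 5 members that fell in the MnSOD line at day 83 had corrected changes of -0.27 (Ir56b), -0.26 (Ir75b), -0.30 (Gr8a), -0.27 (Gr43a) and -0.11 (Ir60e), and none of these was called.

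Between the lines without DOX, MnSOD -DOX minus Control -DOX, 1 member was higher and 1 lower, against 3.21% and 3.33% of all probe sets. Gr98a was read at 5.02, 4.87, 4.88 and 5.06 in the MnSOD line and at 4.79, 4.61, 4.26 and 4.64 in control flies. Its change was 0.38 (SE 0.0916, adjusted p = 0.00691), and the groups did not overlap. Ir76a, an antennal amine receptor, was read at 4.04, 3.81, 3.94 and 4.01 in the MnSOD line and at 4.58, 4.48, 4.33 and 4.24 in control flies. Its change was -0.46 (SE 0.110, adjusted p = 0.00667), and these groups did not overlap either. Each was lost in several fits that left out an array of these groups. Between the same groups 8 of 15 testis genes were lower (median -0.49), 2 of 5 eye genes were lower (median -0.34) and 3 of 11 accessory gland genes were higher, and their part in these changes was not tested.

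A list of taste and smell genes, not all particular to neurons that use these receptors, had 20 matched members. Among them were the odorant co-receptor Orco, the pheromone sensor Snmp1, the channel TrpA1 and G protein subunits. With DOX in control flies 2 were higher, Galphao by 0.48 and Galphas by 0.32, and 4 were lower, 10% and 20% of the list against 12.1% and 14.1% of all probe sets. These were dpr1 (-0.61), which takes part in salt aversion, Poxn (-0.40), the transcription factor of taste bristles, TrpA1 (-0.33) and trpl (-0.29). In the MnSOD line at day 73 none was called. At day 83 the odorant-binding protein gene Obp19b (-0.41, SE 0.0825, adjusted p = 0.0014) and iav (-0.38, SE 0.0892, adjusted p = 0.0049), a channel of hearing neurons, were lower. That is 2 of 20 (10%), against 6.26% of all probe sets, with a median change of -0.09 over the list. Between the lines without DOX, trpl, a photoreceptor channel that is also on the eye list, was lower by 0.84 (SE 0.0821) in the MnSOD line, and Galphao was higher by 0.39 (SE 0.0856).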

How the data were processed

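RNA of 20 samples of whole male flies, 4 in each of 5 groups taken from the sample labels, was read on Affymetrix DrosGenome1 arrays. The deposited table holds log2 signals, which the authors computed from all arrays together with RMA (affy). Versions of these tools are not given in the sources used here, and signals before RMA were not analysed here. Arrays carry no read depth, so the number of arrays limits the precision. The labels give day 73 for the control groups and the methods of the study a later day. The labels call the replicates biological and do not say more, so p-values measure the spread between these samples.

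The platform annotation names 1 gene for 12443 of 14010 probe sets, several for 327 and none for 1240. Symbols were matched to RefSeq (Release 6 plus ISO1 MT), which changed 0 of them. It was used for names and for overlaps between genes only, and no sequence or position is given.

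All 20 arrays entered 1 linear model with 5 group means in limma 3.58.1 (R 4.3.3), with empirical Bayes moderation. P-values were adjusted by Benjamini-Hochberg over all 14010 probe sets within each of 7 contrasts. A call needed an adjusted p under 0.01 and a change of at least 1.2-fold, as in the methods of the study. Tables and plots were made in Python 3.11.15 with pandas 2.3.3 and matplotlib 3.10.9. The fit was tested on simulated data. Alternatives were arrays centred on their median, a fit of the compared groups alone, the replicate number as a block, the lowest 40% of probe sets left out, an intensity trend, adjusted p under 0.05, all probe sets of a member, a spike-in covariate, left-out arrays and exchanged control groups. A covariate of the mouse and yeast probe sets was chosen after seeing the data.

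Named members are those called in a contrast, the 10 with the highest and the 5 with the lowest mean, and members of role lists. The members and lists were chosen with earlier results of these data known.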

Additional observations from a re-analysis of the deposited data

Results flagged for a closer look

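Dixon's criterion was applied to the 29 members called in any contrast, 145 sets of 4 arrays. On 6 of these sets 1 array lay far from the other 3, and chance gives about 1 in 20 such sets. Gr21a was 5.58 on MnSOD -DOX replicate 2, against 5.35 to 5.39 on the others. Ir76b was 5.28 on MnSOD -DOX replicate 4, against 5.09 to 5.12. On Control -DOX replicate 1, Gr2a was 5.90, against 6.02 to 6.04, and Ir48b was 4.61, against 4.22 to 4.24. On Control +DOX replicate 4, Ir48b was 4.18, against 3.90 to 3.93, and Ir94h was 3.32, against 3.03 to 3.06. The last 2 lie on the only Control +DOX array with a spike-in mean near that of the other groups.

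The change from MnSOD -DOX at day 73 to MnSOD +DOX at day 83 was set against the change with DOX in control flies. By the limma interaction these differed for Ir100a (0.63), Gr59b (0.62), Ir56c (0.60), Gr21a (0.55), Ir48b (0.53), Ir76b (0.49), Ir7d (0.46), Ir94h (0.46) and Ir56d (0.44). The change in the MnSOD line also holds the added age. With the control groups exchanged all of these members were below zero. With the spike-in covariate or the mouse and yeast covariate none of these was called.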

How the results depend on the processing

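In control flies 22 members were lower with DOX. For the counts under alternatives in this section the share of all probe sets is not given. The count was 5 with the compared groups alone in the fit and 3 with the lowest 40% of probe sets left out (which leaves 8 members to test). It was 0 with the spike-in covariate and 0 with the mouse and yeast covariate. It ran from 9 without Control +DOX replicate 3 to 30 without Control +DOX replicate 4. Ir60d turned to 0.011 with the mouse and yeast covariate.

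The 5 members lower in the MnSOD line at day 83 became 3 with arrays centred on their median, 2 with the compared groups alone and 2 without the lowest 40%, and 2 to 5 with an array left out. The 40 pairs of arrays with the same number had correlations from -0.39 to 0.36, and 6 were over 0.1, so the numbers do not pair the samples. With the replicate number as a block 3 members were lower at day 83, 20 in control flies, and 6 higher at day 83 after correction.

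The corrected changes at day 73 gave 10 higher members at an adjusted p under 0.05, and 0 to 8 with an array left out, 8 of them without Control +DOX replicate 4. Those at day 83 gave 17 higher and 1 lower at an adjusted p under 0.05, 1 higher without the lowest 40%, and 4 to 12 higher with an array left out. They gave 0 with either covariate. With the control groups exchanged, 6 members were lower at day 73 and 13 at day 83, with 0 higher. Then Ir76b was -0.79, Gr21a -0.57, Ir56c -0.37, Ir100a -0.31, Ir94h -0.27, Ir7d -0.22, Ir56d -0.19, Ir48b -0.14 and Gr59b -0.13.

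Between day 73 and day 83 with MnSOD on, 4 members were lower and 2 higher at an adjusted p under 0.05, 0 were lower with both groups alone, and 1 to 3 with an array left out. Between the lines without DOX, 2 were higher and 3 lower at an adjusted p under 0.05. The higher count was 0 with centred arrays, 0 with both groups alone and 0 without the lowest 40%, and the lower count was 0 without the lowest 40% and 0 with the mouse and yeast covariate. With an array left out, 0 to 1 were higher and 0 to 1 lower. Except for the settings that leave out probe sets, arrays or groups, the cause of these differences was not tested. Of the 71 members 45 lie at or below the highest mouse or yeast probe set.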
